A study of Mus musculus with 84 samples.

Results

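The 7 genes described here, Sntn, Foxj1, Ccdc153, Tmem212, Rarres2, Dynlrb2 and Tekt1, are genes of ciliated ependymal cells that were followed through RNA sequencing libraries of sorted mouse astrocytes. They were named in advance from values of the subtype table, so their levels in that table are described without a test. All 7 are among the 25773 genes of the subtype table and the 48526 genes of the EAE table.

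The subtype table held 15 libraries of astrocytes isolated from wildtype FVB/N mice, 3 each labelled forebrain GLASTneg, forebrain GLASTpos, hindbrain GLASTneg, hindbrain GLASTpos and spinal cord GLASTneg, and 3 libraries of primary astrocytes cultured from the cerebrum of neonatal C57BL/6J mice. The EAE table held 66 libraries of C57BL/6J female mice in 12 groups. EAE (experimental autoimmune encephalomyelitis) is a model of multiple sclerosis, induced here with the myelin peptide MOG35-55 in complete Freund's adjuvant and pertussis toxin. Hindbrain GLASTneg (HB_A), hindbrain GLASTpos (HB_AG) and spinal cord GLASTneg (SC_A) astrocytes were taken from unimmunized controls (C), from mice with a limp tail (E1), from mice with paralysed hind legs (E4) and from mice in the chronic stage (Ech). Isolated cells were all ACSA-2 positive and negative for CD11B and CD45, were split by the glutamate transporter GLAST, and came from up to 2 mice pooled in a library. ACSA-2 and GLAST are surface antigens that were used here to sort astrocytes, and no gate against ependymal cells was part of the sort.

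Ependymal cells line the ventricles and the central canal of the cord and carry tufts of motile cilia that move the cerebrospinal fluid. A motile cilium is built on a ring of microtubule doublets around a central pair, with dynein arms that slide the doublets and radial spokes that steer them. Its genes are switched on together by the forkhead factor Foxj1 and by RFX factors, which bind a promoter element called the X-box. Of the 7 genes, Foxj1 is the regulator, Tekt1 encodes a tektin filament of the doublets, Ccdc153 a coiled-coil protein of the cilium, Dynlrb2 a dynein light chain and Sntn (sentan) a protein of the ciliary tip. Tmem212 encodes a membrane protein whose function is less settled. Rarres2 encodes chemerin, a secreted chemoattractant, and is not a part of the cilium.

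Upstream sequences are shown for the 5 members found in the RefSeq promoter table (GRCm38.p6), because members of this group varied together across the isolated libraries and RFX factors are known regulators of such genes. Each run reads 5′ to 3′ on the gene's strand and ends at the base before the RefSeq start, or before the first exon base where an annotated exon begins earlier, which is 41 bases earlier for Dynlrb2 and 1 for Ccdc153. The run of Tekt1 lies inside the gene as drawn by the annotation used for gene positions, because the RefSeq transcript starts farther downstream. Capitals mark GTTGCC or its reverse complement GGCAAC, the core letters of the X-box. The sequences lie at chr14:13670626-13670875 (plus strand, Sntn), chr9:44240427-44240675 (plus strand, Ccdc153), chr8:116504765-116504973 (plus strand, Dynlrb2), chr11:72361883-72362132 (minus strand, Tekt1) and chr3:27896369-27896618 (minus strand, Tmem212).
Sntn: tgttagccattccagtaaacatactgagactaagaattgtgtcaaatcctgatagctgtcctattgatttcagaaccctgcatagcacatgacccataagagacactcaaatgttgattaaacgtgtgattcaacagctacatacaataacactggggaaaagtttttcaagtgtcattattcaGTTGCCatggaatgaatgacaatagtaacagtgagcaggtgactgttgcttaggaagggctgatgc
Ccdc153: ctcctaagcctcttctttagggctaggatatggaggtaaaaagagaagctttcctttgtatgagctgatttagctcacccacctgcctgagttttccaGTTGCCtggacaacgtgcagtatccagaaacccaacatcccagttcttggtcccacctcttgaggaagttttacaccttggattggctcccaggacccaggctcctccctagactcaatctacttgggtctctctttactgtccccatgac
Dynlrb2: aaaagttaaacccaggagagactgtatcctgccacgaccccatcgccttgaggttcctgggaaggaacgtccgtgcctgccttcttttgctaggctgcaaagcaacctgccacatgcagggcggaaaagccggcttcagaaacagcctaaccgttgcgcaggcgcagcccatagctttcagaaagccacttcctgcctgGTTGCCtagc
Tekt1: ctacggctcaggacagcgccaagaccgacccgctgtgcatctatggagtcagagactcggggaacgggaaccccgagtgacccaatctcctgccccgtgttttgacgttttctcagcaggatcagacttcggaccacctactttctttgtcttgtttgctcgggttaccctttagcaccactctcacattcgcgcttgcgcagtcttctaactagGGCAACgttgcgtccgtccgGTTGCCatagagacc
Tmem212: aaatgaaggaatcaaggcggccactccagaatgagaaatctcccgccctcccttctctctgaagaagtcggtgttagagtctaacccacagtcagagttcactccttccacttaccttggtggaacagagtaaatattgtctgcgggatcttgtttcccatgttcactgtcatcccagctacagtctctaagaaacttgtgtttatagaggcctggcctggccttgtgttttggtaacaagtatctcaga

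The letters GTTGCC, searched on both strands, were found in the windows of 4 of these 5 members. The match began 66 bases before the RefSeq start in Sntn, 152 in Ccdc153, 51 in Dynlrb2, and 15 and 35 in Tekt1, where the farther match was on the other strand. Windows of the same length held these letters in 12.5% of 32851 mouse promoters, or 14.1% of 27025 genes, and in 25 of the 49 other motile cilium genes in the promoter table (51%). The forkhead letters TGTTTAC, searched likewise, were in 3.65% of the promoters, in 2 of those 49 genes (4.08%) and in the window of Sntn, 236 bases before the start on the other strand. The remaining window of Tekt1 and that of Tmem212 held neither. These matches describe letters in a window and were not tested as binding sites.

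In the annotation of GRCm38, Sntn is at chr14:13670876-13683148, Foxj1 at chr11:116330704-116335399, Ccdc153 at chr9:44240676-44247306, Tmem212 at chr3:27866066-27896368, Rarres2 at chr6:48569696-48572789, Dynlrb2 at chr8:116504974-116515915 and Tekt1 at chr11:72344722-72362442. The 3′ end of Rarres2, where these 3′ libraries are read, lies within the last exon of Lrrc61 on the opposite strand. Whether reads were counted by strand is not given in the sources used here, so reads of Rarres2 and Lrrc61 may have been confused and Rarres2 values are uncertain. Tmem212 overlaps the small RNA gene Gm26040 on the opposite strand, which had 0 counts in all 12 EAE groups.

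Isolated FVB/N libraries held 416768 to 1269316 counts, cultured libraries 2183464 to 8188074 and EAE libraries 1313682 to 4895220. Levels are CPM, that is counts scaled to a common library total with TMM factors. More than 3 counts were required to call a gene detected in a library, and 3 counts stood for 2.44 to 6.99 CPM in the isolated FVB/N libraries and 0.634 to 2.44 CPM in the EAE libraries. The astrocyte marker list of 9 genes summed to between 22549 and 30916 CPM in the FVB/N libraries, and all 9 were detected in every one of them. The transcript of the sorted antigen GLAST, Slc1a3, went against the FVB/N labels of forebrain and spinal cord and with those of hindbrain. It averaged 4655 ± 381 CPM (SD, n = 3) in the libraries labelled forebrain GLASTneg and 1939 ± 183 in those labelled forebrain GLASTpos. It averaged 770 ± 209 in those labelled hindbrain GLASTneg, 5817 ± 398 in those labelled hindbrain GLASTpos and 10163 ± 799 in those labelled spinal cord GLASTneg. The study's own table of normalized expression holds the same libraries under other group names, and each of the 15 libraries matched 1 of its columns to within 0.000492% of any value. There, the groups labelled forebrain GLASTpos, hindbrain GLASTneg, hindbrain GLASTpos and spinal cord GLASTneg are named hindbrain GLASTneg, spinal cord GLASTneg, forebrain GLASTpos and hindbrain GLASTpos, and forebrain GLASTneg keeps its name. Under those names Slc1a3 was higher in GLASTpos than in GLASTneg cells of both brain regions and lowest in the cord. For hindbrain and cord the EAE controls had the same order, at 1373 ± 245 CPM in C_HB_A, 7168 ± 1504 in C_HB_AG and 179 ± 40 in C_SC_A. Otx2 averaged 27.1 ± 12.1, 3.30 ± 4.71 and 0.777 ± 1.35 CPM in the groups named hindbrain GLASTneg, hindbrain GLASTpos and spinal cord GLASTneg there. Its means had the same order in the EAE controls, at 99.4 ± 12.9 CPM in C_HB_A, 7.08 ± 6.24 in C_HB_AG and 1.26 ± 2.82 in C_SC_A. In the group labelled hindbrain GLASTpos it averaged 29.6 ± 20.1 CPM. Slc1a3 and Otx2 thus go with the other names, but which names are right was not tested further. Groups are called by their labels here. Every direction between FVB/N groups below is one between labelled groups, whose region and GLAST state remain uncertain.

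All of the 7 genes except Rarres2 were at high levels in the libraries labelled forebrain and lower in most of the other isolated libraries. Foxj1, the regulator, was detected in all 15 libraries. It was at 70.2, 85.3 and 192 CPM in the libraries labelled forebrain GLASTpos and at 85.9, 49.9 and 81.6 CPM in those labelled forebrain GLASTneg. The libraries labelled hindbrain GLASTneg had 31.7, 10.2 and 21.0 CPM, those labelled hindbrain GLASTpos 34.9, 5.56 and 12 CPM and those labelled spinal cord GLASTneg 15.7, 51.2 and 24.8 CPM. The 6 libraries labelled forebrain overlapped with those labelled spinal cord, named hindbrain GLASTpos in the other table, only through the 51.2 CPM of replicate 2. The ratio of group means between the groups labelled forebrain GLASTpos and hindbrain GLASTneg, named hindbrain GLASTneg and spinal cord GLASTneg in the other table, was 5.53. In a bulk library, more ependymal cells and more RNA per cell cannot be told apart.

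Sntn was the member with the sharpest boundary between groups. It was at 7.92, 30.0 and 48.1 CPM in the libraries labelled forebrain GLASTpos and at 7.42, 5.08 and 18.6 CPM in those labelled forebrain GLASTneg. All 6 libraries labelled hindbrain GLASTneg or spinal cord GLASTneg had 0 counts, and the 3 labelled hindbrain GLASTpos had 1 count each. The group labelled forebrain GLASTpos was thus at least 20.2-fold higher than that labelled hindbrain GLASTneg and at least 27.4-fold higher than that labelled spinal cord GLASTneg, with the floor set at 3 counts over the group. Under the other names these compare hindbrain GLASTneg with spinal cord GLASTneg and with hindbrain GLASTpos. Against the group labelled hindbrain GLASTpos the pooled ratio was 31.1. That ratio rests on 1 count in each library of the lower group and leaves out the spread between libraries.

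Ccdc153 and Tmem212 had a similar order of groups. Ccdc153 was at 46.4, 85.3 and 232 CPM in forebrain GLASTpos and at 84.8, 20.3 and 51.3 CPM in forebrain GLASTneg. It was at 6.14, 10.2 and 2.33 CPM in hindbrain GLASTneg, at 30.1, 24.5 and 6.46 CPM in hindbrain GLASTpos and at 2.41, 41.6 and 0 CPM in spinal cord GLASTneg. The forebrain GLASTpos group did not overlap with any of these 3 groups. Tmem212 was at 53.2, 90 and 177 CPM in forebrain GLASTpos and at 67.9, 30.5 and 57.1 CPM in forebrain GLASTneg, and at 11.3, 0 and 4.66 CPM in hindbrain GLASTneg. The group means of Ccdc153 and Tmem212 in forebrain GLASTpos were 19.5 and 20.1 times those in hindbrain GLASTneg. Replicate 2 of the group labelled spinal cord again stood apart, at 57 CPM of Tmem212 against 8.43 and 0 CPM in the other two.

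The dynein light chain Dynlrb2 was at 20.4, 47.3 and 101 CPM in forebrain GLASTpos and at 25.4, 17.8 and 31.5 CPM in forebrain GLASTneg. It ranged from 0 to 18.7 CPM over the other 9 libraries, so that it overlapped only between forebrain GLASTneg and hindbrain GLASTneg. Tekt1 had another order of groups, with its next to highest mean in the libraries labelled spinal cord GLASTneg, named hindbrain GLASTpos in the other table. It was at 10.2, 39.2 and 68.4 CPM in forebrain GLASTpos and at 24.4, 12.7 and 12.8 CPM in forebrain GLASTneg, but at 16.9, 31.9 and 33.1 CPM in spinal cord GLASTneg, where it was detected in all 3 libraries. Rarres2 was near the limit of detection, above 3 counts in 3 of 15 libraries, and its highest value was 12.7 CPM in a library labelled forebrain GLASTpos.

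Between the neighbours in the order of group means, ranges of detected levels did not overlap only between forebrain GLASTneg and hindbrain GLASTpos, for Sntn and for Tekt1. Between hindbrain GLASTpos and hindbrain GLASTneg, Sntn had 1 count per library against 0, and both are below the limit of detection. The members were chosen from these values, and the share of all genes without such overlap was not computed. The step between the forebrain groups was 1.6-fold for Foxj1, 2.06-fold for Tmem212, 2.26-fold for Dynlrb2, 2.32-fold for Ccdc153, 2.36-fold for Tekt1 and 2.76-fold for Sntn, with overlapping libraries in each. Spread within the forebrain GLASTpos group was wide, and the sum of the members was 208, 390 and 825 CPM in its replicates 1, 2 and 3. The ependymal genes Hdc, Mia and Cd24a, which are not ciliary, summed to 274 ± 247 CPM in this group and to between 31.3 and 76.6 CPM on average in the other 4. Markers of the choroid plexus had another order, with 1103 ± 910 CPM in spinal cord GLASTneg and 695 ± 436 CPM in forebrain GLASTpos, made up largely of Ttr, while its marker Kcnj13 was at 0. The part of these cells in the levels was not tested.

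**Figure D1:**
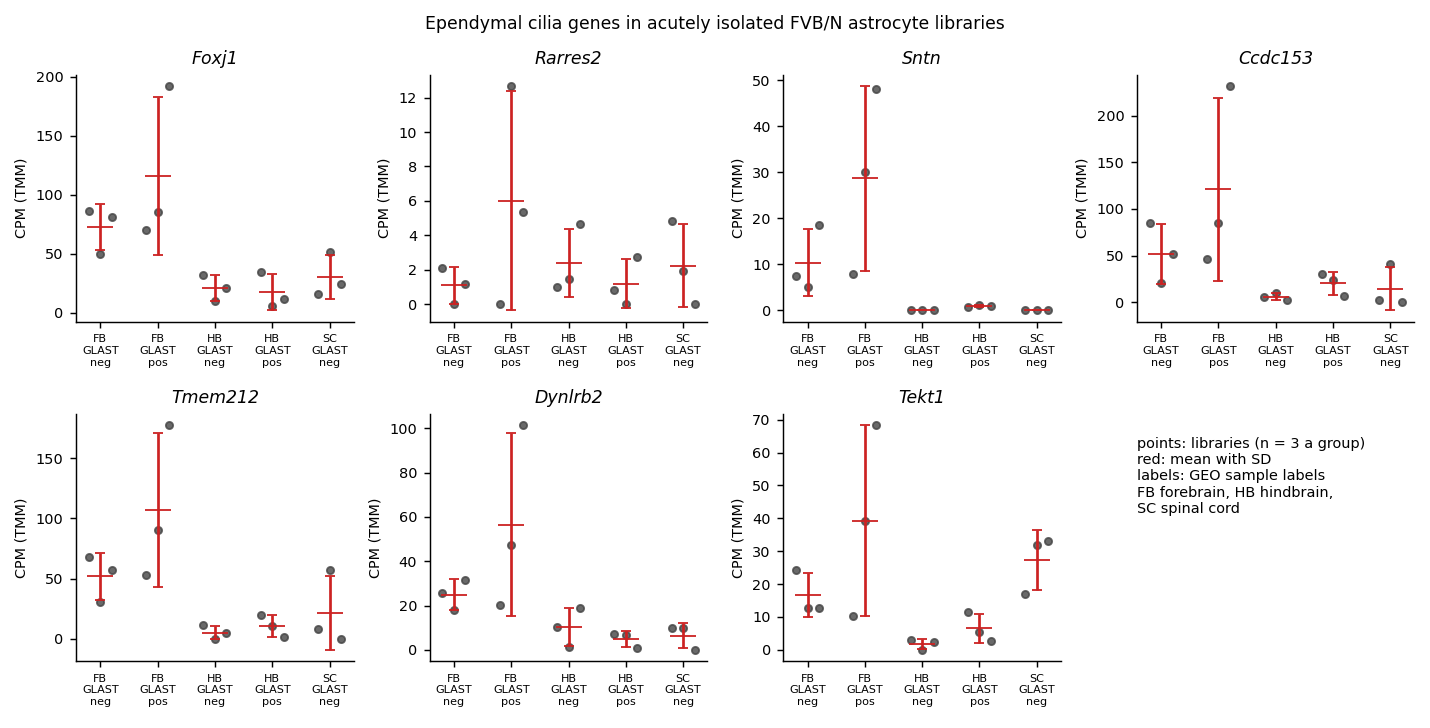
Level of each of the 7 genes in CPM (vertical axes, linear) by labelled group of isolated FVB/N libraries. Points are the 3 libraries of a group and the red mark is their mean with SD, and the libraries labelled forebrain GLASTpos hold the highest value of every gene, such as 192 CPM for Foxj1.

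Under the other group names the high forebrain GLASTpos group is called hindbrain GLASTneg, and the regional pattern moves with it. By the labels, the fitted log2 fold change of forebrain against the mean of the other regions was 6.25 ± 1.10 (SE) for Sntn, 2.58 ± 0.41 for Ccdc153, 2.47 ± 0.53 for Dynlrb2, 2.47 ± 0.42 for Tmem212, 1.89 ± 0.32 for Foxj1, 1.35 ± 0.53 for Tekt1 and 0.41 ± 1.33 for Rarres2. The Sntn value depends on the prior count, since 2 groups were at 0. Under the other names it was 2.69 for Sntn, 0.95 for Ccdc153, 0.49 for Tmem212, 0.40 for Tekt1, 0.01 for Foxj1, -0.28 for Dynlrb2 and -1.24 for Rarres2. The median over the 7 genes was 2.47 by the labels and 0.40 by the other names. For hindbrain against the other regions the median was -1.57 by the labels and 1.54 by the other names, so its sign depended on which set of names is right. None of these values was tested, because the members were chosen from this table.

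In cultured astrocytes the cilia genes split into those far above the isolated cells and those not. Foxj1 was at 716, 398 and 476 CPM, Dynlrb2 at 270, 113 and 149 CPM and Tekt1 at 193, 130 and 153 CPM, and all of these libraries were above every isolated one. Their log2 fold changes against the mean of the 5 isolated groups were 3.70 ± 0.26, 3.70 ± 0.36 and 3.71 ± 0.34 (SE). Differences of this kind were common, as 23.3% of all genes were called higher in cultured cells in that comparison and 8.38% lower. Ccdc153 was at 148, 76.6 and 92.1 CPM, between the forebrain libraries. Tmem212, at 53.3, 30.7 and 20.0 CPM, was 3.13-fold lower by mean than in forebrain GLASTpos, with cultured and isolated libraries scaled jointly. Its highest library was close to the lowest of that group, which was at 53.2 CPM with the isolated libraries scaled alone. Sntn, at 1.59, 0.571 and 0.601 CPM, was 31.6-fold lower than in forebrain GLASTpos, without overlap. Cultured cells also differed in strain and age from the isolated cells, and these differences cannot be told apart from culture.

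In the EAE table Foxj1 had counts in every library, while the other members were at 16.6 CPM or less or were not counted. The tables were normalized separately, so that levels of both are set side by side without a test. Sntn had 0 counts in all 66 libraries, which allows up to 0.0154 CPM over the table, a limit that covers counting error only. Foxj1 was above 3 counts in 65 of 66 libraries, at 1.76 to 66.6 CPM. Tekt1 was detected in 46 libraries, Rarres2 in 44 and Dynlrb2 in 42, with highest values of 16.6, 12.3 and 10.5 CPM. Ccdc153 was detected in 6 libraries and Tmem212 in 9, with highest values of 3.26 and 4.46 CPM. In the GLASTpos hindbrain, Ccdc153 had 0 counts in all 21 libraries. The 6 genes other than Sntn passed the filter of 10 counts in total.

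Foxj1 made up a larger share of the members' summed counts in HB_AG and in the cord groups of this table than in the isolated FVB/N groups. Its median share was 23.3% to 43.8% in the labelled FVB/N groups and 53.1% in cultured cells. It was 42.6% to 54.7% in the HB_A groups, 69.1% to 80.8% in the HB_AG groups, 67.2% in C_SC_A and 94.6% in E4_SC_A. In replicates 4 and 5 of E4_SC_A, Foxj1 was the sole member with any count. Shares were compared between libraries only, as 3′ counts do not give levels per length between genes.

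**Figure D2:**
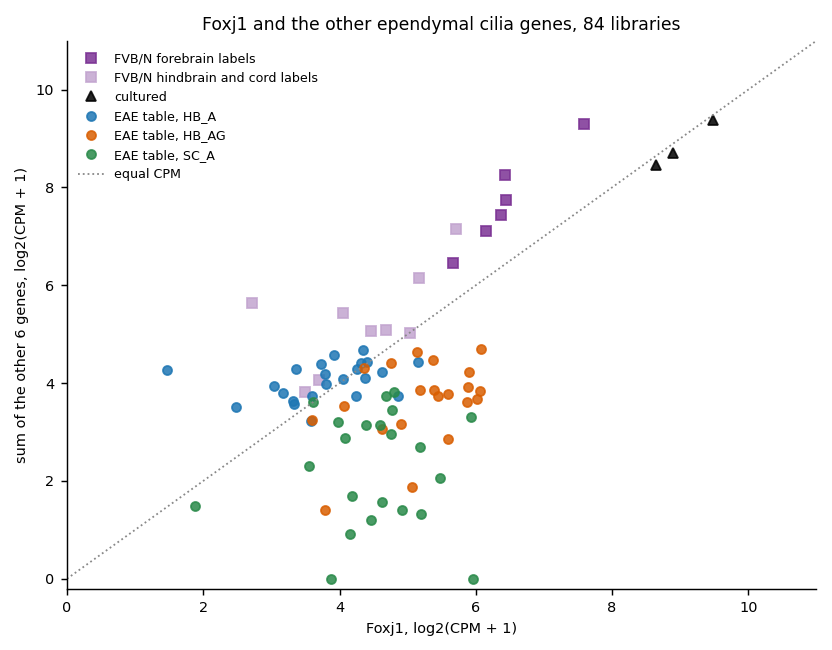
Foxj1 (horizontal axis) against the sum of the other 6 genes (vertical axis), both as log2(CPM + 1), in all 84 libraries, of tables that were normalized separately. Squares are isolated FVB/N libraries, triangles cultured cells and circles EAE libraries by population, and below the dotted line of equal CPM lie most of the HB_AG and SC_A libraries, where the other members were low while Foxj1 was not.

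The question of the control groups was whether the populations differ without disease. Tekt1 was lower in the GLASTpos than in the GLASTneg hindbrain. It was at 8.92, 12.9, 16.0, 16.6 and 10.1 CPM in C_HB_A, at 1.63, 0, 3.59, 0.254 and 1.96 CPM in C_HB_AG and at 7.44, 7.54, 0, 0 and 2.81 CPM in C_SC_A. The hindbrain groups did not overlap, and the ratio of their means was 8.67. The log2 fold change was -3.08 ± 1.06 (edgeR quasi-likelihood test, adjusted p = 0.0397 over 23324 genes). It was the single call among the 6 members tested in this comparison, in which 7.06% of all genes were called lower and 3.4% higher. All C_HB_A libraries had sheet numbers (the S number in each label) of up to 56 and all C_HB_AG libraries higher ones, so this range and the population cannot be told apart, and with the range as a covariate the adjusted p was 0.221. The call was also lost (edgeR adjusted p of 0.053 to 0.0986) without replicate 2, 3 or 4 of C_HB_A and without replicate 1, 2, 4 or 5 of C_HB_AG, each left out alone. The number before the sheet number in the labels recurs between populations of a stage and may name the mouse, although the labels do not say so, and with shared numbers as a block the log2 fold change of Tekt1 was -2.58 ± 1.06 (edgeR adjusted p = 0.103).

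The other members overlapped between control hindbrain populations. Foxj1 was at 28, 18.9, 34.6, 19.4 and 19.7 CPM in C_HB_A, at 23.7, 32.6, 42.8, 35.3 and 15.7 CPM in C_HB_AG and at 24.8, 26.9, 60.2, 23.2 and 11.2 CPM in C_SC_A. Its 3 ranges overlapped throughout. Dynlrb2 ran from 0.758 to 10.2 CPM in C_HB_AG and from 1.04 to 3.93 CPM in C_HB_A, with a log2 fold change of 1.46 ± 1.03 (edgeR adjusted p = 0.36). Tmem212 had 0 counts in all 5 C_HB_A libraries and was at 4.46, 0, 2.01, 0 and 1.87 CPM in C_SC_A. This was 5.14-fold above a floor of 3 counts over C_HB_A (0.28 CPM), a ratio that leaves out the spread between libraries. The edgeR adjusted p was 0.139, and with shared numbers as a block the log2 fold change was 4.52 ± 3.11 (edgeR adjusted p = 0.748). No member passed the test between C_SC_A and C_HB_A with edgeR or DESeq2, where 4.2% of all genes were called with edgeR and 1 of the 6 members had an unadjusted p under 0.05.

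In spinal cord at E4, the stage of hind leg paralysis, Tmem212 and Rarres2 were lower than in controls. Tmem212 had 0 counts in all 6 E4_SC_A libraries, against the 4.46, 0, 2.01, 0 and 1.87 CPM of the controls. Controls were at least 8.2-fold higher, with the floor set at 3 counts over the group (0.176 CPM), and 2 of the 5 control libraries were also at 0. The fitted log2 fold change was -5.33 ± 1.81 (edgeR quasi-likelihood test, adjusted p = 0.0277). Rarres2 was at 0, 5.58, 0.287, 1.88 and 3.28 CPM in controls, and had 1 count (0.444 CPM) in replicate 6 of E4 and 0 in the others. The pooled ratio of controls to E4 was 38.1 (exact 95% counting interval 6.36 to 1550), and the log2 fold change was -4.42 ± 1.22 (edgeR adjusted p = 0.0044). For genes at or near 0 in a group the fitted fold change depends on the prior count and is not a bound.

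These were the edgeR calls, 2 of the 6 members tested, in a comparison that called 11.1% of all genes lower and 6.8% higher. A count of 4 members had an unadjusted p under 0.05. Dynlrb2, at 0.496, 0, 6.31, 5.65 and 3.28 CPM in controls and with a median of 0.222 CPM (0 to 1.3) at E4, had an adjusted p of 0.0577, and Tekt1, with a median of 0 CPM (0 to 2.82) at E4, of 0.0989 (both edgeR). DESeq2 called both, with log2 fold changes of -2.77 for Dynlrb2 (DESeq2 adjusted p = 0.017) and -2.38 for Tekt1 (DESeq2 adjusted p = 0.0446). With the filter filterByExpr, edgeR called Dynlrb2 as well (adjusted p = 0.0383). Dynlrb2 was also called by edgeR without replicate 1 or 2 of C_SC_A or replicate 3 of E4_SC_A, and Tekt1 (adjusted p = 0.0316) without replicate 1 of E4_SC_A. Foxj1 did not pass the test at E4, at 10.7, 2.7, 21.0, 13.6, 61.2 and 16.9 CPM, with a log2 fold change of -0.46 ± 0.43 (edgeR adjusted p = 0.484). Its highest library, replicate 5, was above all 5 controls and the other 5 E4 libraries were within or below their range. Without replicate 5 the log2 fold change of Foxj1 was -1.16, with an edgeR adjusted p of 0.0429. Ccdc153 was at 0 at E4, with 2 counts in all over the controls, too few for a fold.

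Of the 6 libraries of E4_SC_A, 5 had sheet numbers up to 56, while the 5 controls had higher ones. With that range as a covariate neither gene was called, with edgeR adjusted p of 0.202 for Tmem212 and 0.641 for Rarres2. Leaving out replicate 1 of C_SC_A or replicate 3 of E4_SC_A also left Tmem212 uncalled, at adjusted p of 0.0576 and 0.0508, and the call of Rarres2 did not change when any library was left out. In a fit of the cord alone Rarres2 was not called (edgeR adjusted p = 0.0561), and with libraries of the higher sheet numbers alone, which leaves 1 E4 library, neither gene was. Replicate 3, the E4 library within the range of the controls, had 0 counts of Tmem212 and of Rarres2. Lrrc61, the antisense neighbour of Rarres2, averaged 0.0628 CPM in C_SC_A and 0.637 CPM in E4_SC_A. Marker lists of other cell types differed between the cord groups as well. The astrocyte list summed to 16453 ± 2014 CPM (SD, n = 5) in C_SC_A, 3129 ± 697 in E4_SC_A and 4914 ± 1043 in Ech_SC_A (n = 6 each). Within it S100b had another order, at 2141 ± 294, 2208 ± 768 and 3989 ± 960 CPM, and the other 8 summed to 14312 ± 1843, 920 ± 508 and 925 ± 275 CPM. Atp1b2, which encodes the ACSA-2 antigen, was at 6598 ± 926, 357 ± 209 and 456 ± 137 CPM. The oligodendrocyte list of 10 genes summed to 13915 to 40163 CPM in C_SC_A and to 28581 to 72647 CPM in E4_SC_A, with all 10 detected in every library. The myeloid list of 12 genes summed to 14.4 to 49.6 CPM in C_SC_A and to 99.8 to 3310 CPM at E4, where replicate 2 stood apart and the other 5 libraries were at 213 CPM or less. Tmem212 and Rarres2 were both still called without that replicate. The ependymal genes Hdc, Mia and Cd24a summed to 22.3 ± 10.4 CPM in controls and to 2.26 to 110 CPM at E4. The highest sum was in replicate 2, which also stood apart in the myeloid list, and came from Hdc and Cd24a, as Mia was at 0 in all 6 E4 libraries. Whether these transcripts came from ependymal cells there was not tested. Choroid plexus markers were near 0 in the cord, at 2.77 ± 4.72 CPM in controls and 0.70 ± 0.743 CPM at E4, with 5 of 10 at 0 in each group, of which Kl, Kcne2 and Kcnj13 were at 0 in both. The part of these lists in the levels of the members was not tested.

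At the other cord stages the pattern was uneven. In Ech_SC_A, Tekt1 was at 0.235 and 0.917 CPM in replicates 1 and 2 and at 0 in the other 4 libraries, against 7.44, 7.54, 0, 0 and 2.81 CPM in controls. The controls' mean was 18.5 times higher, although 2 control libraries were at 0, and the log2 fold change was -3.93 ± 1.12 (edgeR quasi-likelihood test, adjusted p = 0.00735). It was the single member called at this stage, where 9.57% of all genes were called lower. The call was lost in a fit of the cord alone (edgeR adjusted p = 0.107) and with libraries of the higher sheet numbers alone (adjusted p = 0.123). Tmem212 was counted again at Ech, at 2.82 and 1.27 CPM in replicates 1 and 3. Ccdc153 was counted in all 6 Ech libraries, at 1.65, 2.14, 1.06, 0.454, 0.3 and 0.822 CPM, against 2 single counts among the 5 controls. Its pooled ratio was 7.77 (exact 95% counting interval 1.93 to 67.8), and its log2 fold change of 2.73 ± 1.75 did not pass the test (edgeR adjusted p = 0.283). Foxj1 lay at 19.9 to 43.6 CPM, within the range of the controls.

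At E1, the limp tail stage, no cord member was called with edgeR, with 2 of 6 at an unadjusted p under 0.05, and DESeq2 called 1. Dynlrb2 was at 1.74 CPM in replicate 1 of E1_SC_A and had 0 counts in the other 4 libraries, with a log2 fold change of -2.90 ± 1.11 (edgeR adjusted p = 0.0902). Replicate 1 is the library whose tissue field names the hindbrain while its title names the cord. Otx2 had 0 counts in all 5 E1_SC_A libraries, against 43.1 to 104 CPM in E1_HB_A and 0 to 9.18 CPM in E1_HB_AG. Slc1a3 was at 38.7 to 227 CPM in E1_SC_A, against at least 837 in E1_HB_A and 7704 in E1_HB_AG. By Slc1a3 replicate 1 thus lay with the cord libraries, while Otx2 set it apart from E1_HB_A but not from E1_HB_AG. Without replicate 1, the only E1_SC_A library with Dynlrb2 counts, the log2 fold change of Dynlrb2 was -6.25 (edgeR adjusted p = 0.00469). That fit sets a group at 0 against the controls, so its size depends on the prior count. Of all genes, 6.17% were called at E1. Tmem212 was at 1.74, 0, 1.98, 4.45 and 0 CPM, overlapping with its controls.

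In the hindbrain no member was called at any stage in HB_A or HB_AG, with edgeR or DESeq2. In HB_A, where 0.643%, 0.729% and 0.193% of all genes were called at E1, E4 and Ech with edgeR, 2, 1 and 1 of the 6 members had an unadjusted p under 0.05. In HB_AG, with 1.49%, 2.03% and 1.31% called, these were 1, 0 and 0. Foxj1 in HB_A ran from 4.57 to 17.8 CPM (median 9.15) at E1, below the 18.9 to 34.6 CPM of the controls without overlap. Its log2 fold change was -1.24 ± 0.45 (edgeR adjusted p = 0.355). At E4 it ran from 1.76 to 23.6 CPM (median 9.56) and at Ech from 12.3 to 20.1 CPM (median 14.8), each overlapping with the controls. Rarres2 in HB_AG ran from 4.59 to 12.3 CPM (median 7.88) at E1, above the 3.27, 1.14, 0, 3.05 and 0 CPM of the controls without overlap, with a log2 fold change of 2.40 ± 1.00 (edgeR adjusted p = 0.198). Lrrc61 averaged 3.2 CPM in the same libraries and 0.379 CPM in the controls. Tekt1 in HB_A remained counted in all 23 libraries, with medians of 12.9, 6.98, 6.1 and 10.2 CPM from C to Ech and overlapping ranges.

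**Figure D3:**
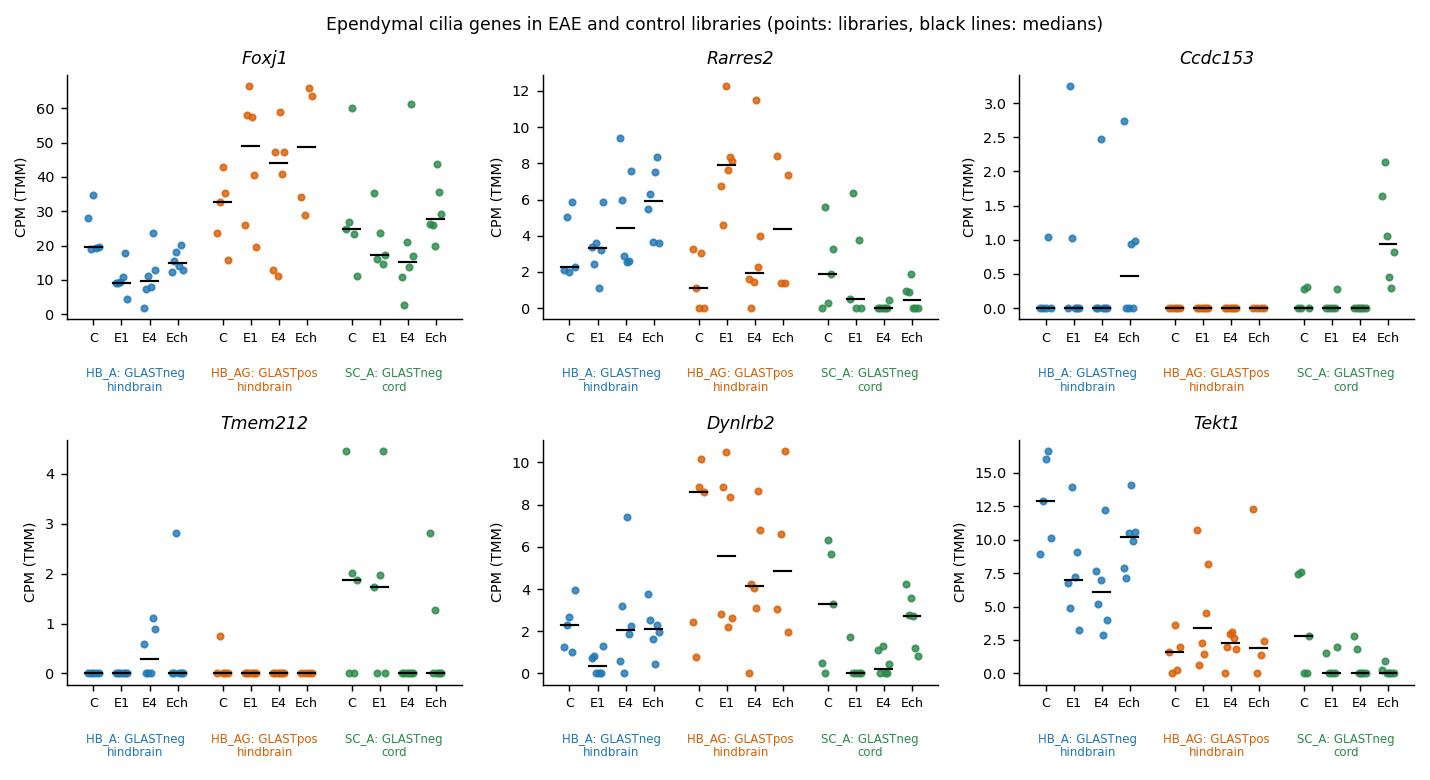
Level in CPM (vertical axes, linear) of the 6 genes counted in the EAE table, by stage and population. Points are libraries and black lines group medians, and Tmem212 and Rarres2 are at or near 0 in all 6 E4_SC_A libraries, while Tekt1 is highest in HB_A.

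Whether the E4 response of the cord differed from that of the hindbrain was tested directly. The difference, SC_A response minus HB_A response, was -8.80 ± 2.55 on the log2 scale for Tmem212 (edgeR interaction contrast, adjusted p = 0.0208) and -4.97 ± 1.53 for Rarres2 (adjusted p = 0.0276). The call of Rarres2 was lost without replicate 2 of C_SC_A, replicate 3 or replicate 5 of E4_SC_A, at edgeR adjusted p of 0.0716, 0.0518 and 0.0512. For Tmem212 it rests on 20 counts over the control cord libraries and 6 counts over the E4_HB_A libraries, with 0 in both E4_SC_A and C_HB_A, so its size is not a bound. For Rarres2, E4_HB_A ran from 2.57 to 9.4 CPM (median 4.44) and C_HB_A from 2.0 to 5.89 CPM. Of all genes, 6% had a lower response in the cord. With the sheet range as a covariate the adjusted p was 0.117 for Tmem212 and 0.762 for Rarres2 (edgeR). With the numbers shared between populations as a block neither was called, at differences of -7.41 ± 4.15 and -3.26 ± 1.85 (edgeR adjusted p = 0.421 and 0.437). DESeq2 called Rarres2 and gave no adjusted p for Tmem212. The cord and the GLASTneg hindbrain differed in none of the members' responses at E1 or Ech with edgeR, with 0 and 2 of 6 members at an unadjusted p under 0.05 and 0.214% and 6.8% of all genes called, while DESeq2 called 0 and 1. The member called by DESeq2 was Tekt1 at Ech, which edgeR also called without replicate 2 of Ech_SC_A (a difference of -4.87, adjusted p = 0.0419). No member's response differed between HB_AG and HB_A at any stage with either tool, with 1, 2 and 2 of 6 at an unadjusted p under 0.05 at E1, E4 and Ech, and 0.00857%, 0.00857% and 0.06% of all genes called with edgeR.

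**Figure D4:**
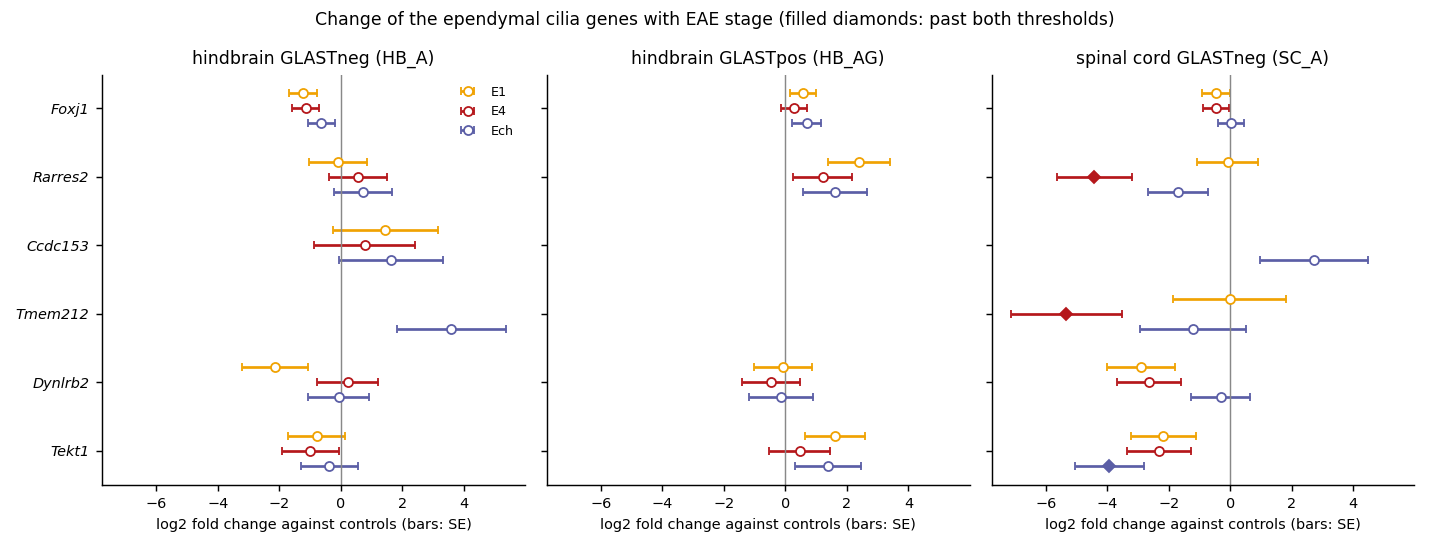
Log2 fold change against controls (horizontal axes) of the 6 genes (rows) at E1, E4 and Ech in each population, with bars of 1 SE. Filled diamonds mark an adjusted p under 0.05 with a log2 fold change beyond 1, which are Rarres2 at -4.42 and Tmem212 at -5.33 in E4_SC_A and Tekt1 at -3.93 in Ech_SC_A, and a point is left out where no library of either group was above 3 counts.

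The wider machinery of the motile cilium was followed in 5 lists of 57 other genes, for regulators, dynein arms, assembly and docking factors, radial spokes and central pair, and doublet proteins. In the FVB/N libraries their sum ordered the groups as the members did, at 1661 ± 1120 CPM (SD, n = 3) in forebrain GLASTpos, 808 ± 294 in forebrain GLASTneg, 452 ± 329 in spinal cord GLASTneg, 341 ± 95 in hindbrain GLASTpos and 297 ± 51 in hindbrain GLASTneg. With edgeR, 19 of the 52 genes tested were called higher in forebrain GLASTpos than in the mean of the other 4 groups and 0 lower, against 1.72% of all genes higher and 0.221% lower. Their median log2 fold change was 2.44, against 0.12 over all genes. By the labels, 15 were higher in forebrain than in the other regions and 0 lower, with 1.32% of all genes called higher and 0.421% lower. Under the other names 1 was higher in forebrain and 6 were higher in hindbrain, with 2.13% and 2.25% of all genes called higher. The members were chosen from this table, where they were highest in forebrain GLASTpos. The list genes varied with them over the same 15 libraries, at a median r of 0.519 against 0.0921 over all genes. These calls therefore describe the same pattern again and are not separate evidence for it. In cultured cells the sum was 3569 ± 1241 CPM, and 49 of 57 were called higher than in the isolated groups and 0 lower, where 23.3% of all genes were called higher and 8.38% lower.

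In the EAE table the same genes held 226 ± 36 CPM in C_HB_A, 223 ± 38 in C_HB_AG (n = 5 each) and 131 ± 26 in C_SC_A (n = 5). The sum over the lists in the cord was 96 ± 17 CPM at E4 and 123 ± 24 CPM at Ech (n = 6 each), and the range at Ech, 81.8 to 142 CPM, overlapped with the 99.2 to 172 CPM of the controls. Of 56 genes tested with edgeR at E4_SC_A, 3 were lower and 0 higher, where 11.1% of all genes were called lower. Dnai1, an intermediate chain of the outer dynein arm, fell most clearly, from 4.62 ± 2.30 CPM in C_SC_A to 0.112 ± 0.186 CPM, with a log2 fold change of -4.88 ± 1.07 (edgeR adjusted p = 2.81e-04). Ccdc39, a ruler protein of the doublets, fell by 1.33 ± 0.48 on the log2 scale (edgeR adjusted p = 0.0369), and the tektin Tekt4 fell by 3.85 ± 1.46 (edgeR adjusted p = 0.0466). The count of 3 dropped to 1 without replicate 2 of C_SC_A or without replicate 1 or 3 of E4_SC_A.

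At Ech_SC_A, 2 of the list genes were lower and 3 higher, with 9.57% and 5.16% of all genes called. Dnai1 had 0 counts in all 6 libraries, with a fitted log2 fold change of -6.78 ± 1.18 (edgeR adjusted p = 6.97e-06), and Ccdc39 fell by 1.42 ± 0.48. Mns1, a protein inside the doublets, rose from 4.81 ± 1.12 CPM to 20.0 ± 8.08 CPM, by 2.05 ± 0.58 on the log2 scale (edgeR adjusted p = 0.00672). The dynein heavy chains Dnah10 and Dnah11 were also called higher. Both had 0 counts in all 5 control libraries, and at Ech Dnah10 was detected in 6 of 6 libraries, at 1.37 to 4.65 CPM, and Dnah11 in 2 of 6. Their fitted log2 fold changes of 6.16 and 5.14 depend on the prior count and are not bounds, as does that of Dnai1. The count of 5 dropped to 3 without replicate 2 of C_SC_A or without replicate 3 or 6 of Ech_SC_A. The cord response of Dnah10 exceeded that of HB_A at this stage by 6.85 (edgeR adjusted p = 0.0412) and that of Dnai1 lay below it by a log2 difference of -5.92 (edgeR adjusted p = 0.0022), where 1.54% and 5.26% of all genes had a higher or lower response in the cord. The count of 2 dropped to 1 without any of 11 libraries of the 4 groups, left out singly.

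Between control populations, Rsph9, a radial spoke head protein, and Rfx3, an RFX factor, were lower in C_SC_A than in C_HB_A, with log2 fold changes of -2.02 ± 0.41 and -1.42 ± 0.38 (edgeR adjusted p = 3.4e-04 and 0.011), and 1.58% of all genes were called lower there. Their means were 13.3 against 54.0 CPM for Rsph9 and 13.0 against 34.6 CPM for Rfx3. Mns1 was higher and Enkur lower in C_HB_AG than in C_HB_A, with log2 fold changes of 1.97 ± 0.59 and -5.80 ± 1.87 (edgeR adjusted p = 0.0164 and 0.0269). Enkur had 0 counts in all 5 C_HB_AG libraries, so that its fitted value is not a bound either. Both calls come from the comparison in which population and sheet range cannot be told apart. The count of these list genes dropped from 2 to 1 without replicate 1 of C_HB_A or without replicate 2, 3, 4 or 5 of C_HB_AG, and that of the cord against C_HB_A likewise without replicate 2 of C_HB_A or of C_SC_A. Dnai2, an outer arm intermediate chain, averaged between 6.17 and 18.4 CPM over the 12 EAE groups and was not called in any comparison. In the other 12 comparisons edgeR called 0 of the 56 list genes, with 3 to 11 at an unadjusted p under 0.05, while DESeq2 called 2 lower at E1_SC_A, 1 with a lower E4 response in the cord than in HB_A, and 0 in the rest.

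**Figure D5:**
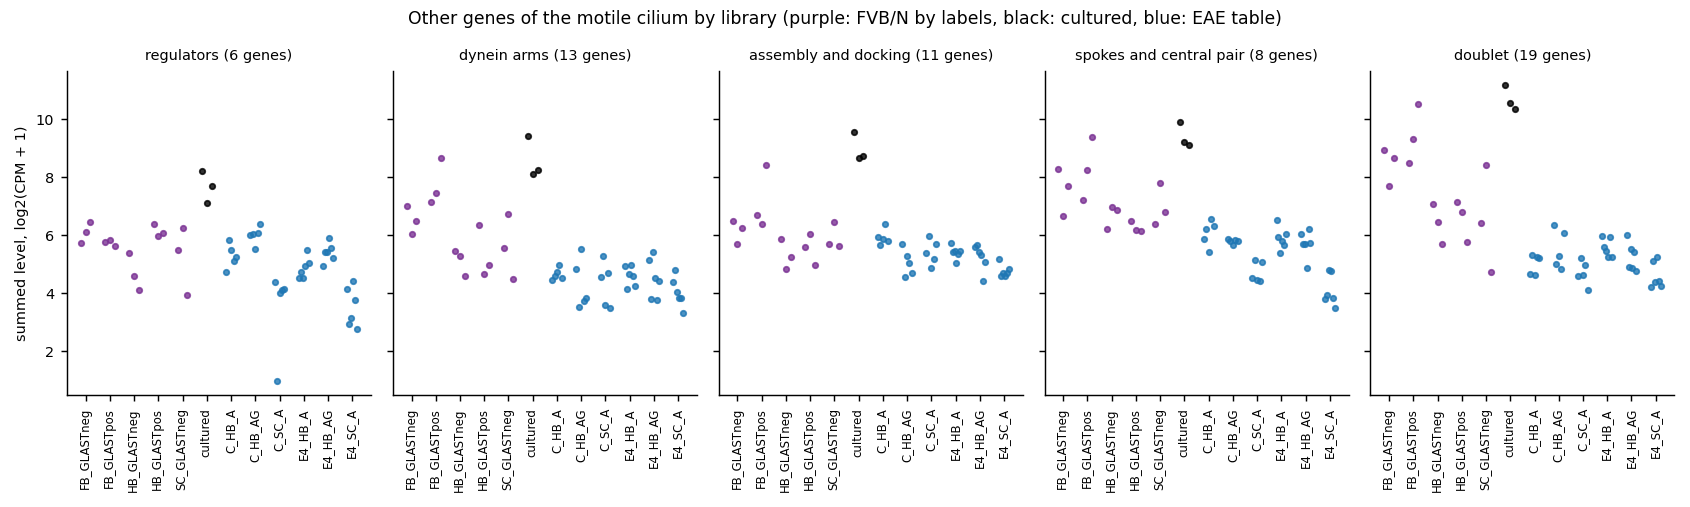
Summed level of the 5 lists of other motile cilium genes (panels) as log2(CPM + 1) by group of libraries, with each point a library. The cultured libraries have the highest median in every panel, and in the doublet list the forebrain GLASTpos libraries, with a mean sum of 823 CPM, lie well above the C_SC_A and E4_SC_A libraries, with 26.1 and 24.5 CPM.

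Within groups, the members varied together in the FVB/N libraries and hardly in the EAE table. After removal of group means from log2(CPM + 1), the Pearson correlation over the 15 isolated FVB/N libraries was between 0.202 and 0.886 for the 21 pairs of members, with a median of 0.457, and was highest for Tmem212 with Dynlrb2. Over the 66 EAE libraries the 15 pairs of the 6 counted members lay between -0.214 and 0.176, with a median of -0.0471. These are descriptions, as the libraries share preparation and depth and many EAE values are a few counts.

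Among the 14171 genes at a mean of at least 1 CPM, those most like the mean of the members over the 15 FVB/N libraries were Dmkn (r = 0.923), Drc3 (0.921), Ugcg (0.918), Ldb2 (0.908) and Fam183b (0.902). Drc3 is a subunit of the nexin-dynein regulatory complex of the cilium and Fam183b a ciliary protein, and 2 of the top 20 were in the wider lists. The 52 list genes compared had a median r of 0.519 against 0.0921 over all genes. Over the 66 EAE libraries the highest were Mtx2 (r = 0.593), Klf15 (0.54), Zfp827 (0.53), Zfp874b (0.529) and Bicd1 (0.516) among 14889 genes, and 0 of the top 20 were in the wider lists. There the 28 list genes compared had a median r of 0.0677 against 0.0336 over all genes.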

How the data were processed

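The authors made QuantSeq 3′ libraries, sequenced single reads on an Illumina instrument, aligned the reads to GRCm38 (Ensembl 82) with HISAT 0.1.5 and counted reads per gene with HTSeq 0.6.1p1 in union mode. The values the authors deposited are raw counts per gene and library, in 1 table for the subtypes and 1 for EAE, without pooling of replicates beyond the mice in a library. The strand setting is not given in the sources used here. Symbols were matched for 25608 of 25773 and 48058 of 48526 gene IDs, and no libraries had identical counts.

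The 7 members, the lists of other genes and the tests were chosen with earlier results of these data known. Groups follow the GEO labels, and for 1 library of E1_SC_A the title was used over its tissue field. Group names in the study's supplement were matched to libraries by their values and used as an alternative. Most EAE labels carry a number that recurs across populations of a stage and may name the mouse, although the labels do not say so. Populations were fitted as independent, and with blocks of shared numbers as an alternative added after the data were seen. Named besides the members are the gene of each cilia list with the highest mean CPM in the EAE table, the 5 genes most like the members in each table and the sorted antigens. List genes that passed the test and genes of other cell types were named after their values were seen.

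Each fit took the genes that reached 10 counts over its libraries. The quasi-likelihood test of edgeR 4.0.16 (R 4.3.3) was used two-sided, after TMM scaling, over all 66 EAE libraries (23324 genes), the 15 isolated FVB/N libraries (14957) or these with the cultured libraries (17126). A gene was called at a Benjamini-Hochberg adjusted p under 0.05 over the whole fit together with a log2 fold change beyond 1 in size. Fits that leave out a library, or keep the second sheet range only, used the dispersions of the whole fit. Alternatives were other scalings and filters, DESeq2 1.42.0, fits of 1 population, the replicate number or the shared label number as a block, the sheet range of the labels as a covariate (up to 56, from 57), robust empirical Bayes and leaving out each library. On simulated counts, 91% of 200 genes changed 8-fold were recovered in the comparison of E4_SC_A with C_SC_A, with 1 unchanged gene called among 22874 genes. In that of forebrain GLASTpos with the other 4 groups 92.5% were recovered, with 6 unchanged genes called among 14650. The changed genes were drawn from well-counted genes only, and the simulated dispersion was capped at 0.4. These rates therefore do not cover genes of few counts, such as Tmem212, Rarres2 and Tekt1 in the EAE table. Folds against a group at 0 use 3 counts over the group, and counting intervals are exact at 95% and cover counting error only. Promoter windows of RefSeq run from 250 bases before to 50 after a start.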

Additional observations from a re-analysis of the deposited data

Results flagged for a closer look

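Among 54 sets of 4 to 6 EAE libraries, 7 held a library whose gap to its nearest neighbour exceeded Dixon's 95% critical value. That value is passed by about 1 of 20 sets of normally distributed data, a rate that does not hold for few counts. A set with counts in 1 library alone always passes it, so the number of sets flagged cannot be compared with chance. Foxj1 was at 61.2 CPM in replicate 5 of E4_SC_A, against 2.7 to 21.0 CPM in the other 5 libraries. Ccdc153 was at 3.26 CPM in replicate 2 of E1_HB_A (others 0 to 1.03), at 2.47 CPM in replicate 3 of E4_HB_A (others 0) and at 2.74 CPM in replicate 1 of Ech_HB_A (others 0 to 0.988). Tmem212 was at 2.83 CPM in replicate 3 of Ech_HB_A (others 0). Rarres2 was at 11.5 CPM in replicate 4 of E4_HB_AG (others 0 to 4.01). Dynlrb2 was at 1.74 CPM in replicate 1 of E1_SC_A (others 0), the library with disagreeing tissue labels. Apart from those of Foxj1 and Rarres2, these values are few counts against 0 or nearly 0.

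The E4 response in the cord differed from that in the GLASTneg hindbrain by a log2 difference of -8.80 for Tmem212 and -4.97 for Rarres2 in the interaction contrast of edgeR (adjusted p of 0.0208 and 0.0276). Neither was called with the sheet range as a covariate or with the label number shared between populations as a block.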

How the results depend on the processing

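Of 159 counts of called members under other settings, 144 were within 1.5 times of the edgeR fit described above, and of 245 that each left out 1 library, 233 were. In most comparisons the count was 0 in that fit and in every alternative, so these shares say little about stability. All moves fell in the comparisons that follow. At E1_SC_A, DESeq2 called 1 member in place of 0, and leaving out libraries gave 0 to 1. At E4_SC_A, 1 in place of 2 members was called in a fit of the cord alone and with the replicate number as a block, and 0 with the sheet range as a covariate or with libraries of the higher sheet numbers alone, an alternative added after the data were seen that leaves 1 E4 library. At Ech_SC_A, 0 in place of 1 were called in a fit of the cord alone and with the higher sheet numbers alone. Between C_HB_AG and C_HB_A, 0 in place of 1 were called with the sheet range as a covariate or with the shared label number as a block, and 0 to 1 when a library was left out. For the E4 response of the cord minus that of HB_A, 1 in place of 2 members was called with edgeR's filterByExpr, with DESeq2 (whose adjusted p for Tmem212 was NA) and with the replicate block, 0 with the sheet range as a covariate or the shared label number as a block, and 1 to 2 when a library was left out. For the Ech response, DESeq2 called 1 in place of 0, and leaving out libraries gave 0 to 1. The lone E4 library of the higher sheet numbers was assumed to vary like the other groups. The cause of these moves was not tested.

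Adjusted p ranged over the alternatives from 0.0245 to 0.726 for Tmem212 and from 0.000704 to 0.641 for Rarres2 at E4_SC_A, from 0.00117 to 0.123 for Tekt1 at Ech_SC_A, and from 0.00623 to 0.221 for Tekt1 between C_HB_AG and C_HB_A. For the E4 response it ranged from 0.0174 to 0.421 for Tmem212 and from 0.00559 to 0.762 for Rarres2. None of the members' fold changes recomputed (152 without 1 library, 102 under other settings) reversed.

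Of the wider list, edgeR's filterByExpr and DESeq2 each called 5 genes at E4_SC_A in place of 3, the fit of the cord alone 1, the higher sheet numbers alone 0, and leaving out libraries 1 to 4. At Ech_SC_A, 3 in place of 5 were called in the fit of the cord alone, with the sheet range as a covariate and with the higher sheet numbers alone, and 3 to 5 when a library was left out. Between C_HB_AG and C_HB_A, filterByExpr called 4 in place of 2, the sheet covariate 0, the shared label number as a block 1, and leaving out libraries 1 to 2. Between C_SC_A and C_HB_A, that block gave 1 in place of 2, and leaving out libraries 1 to 2. For the Ech response of the cord minus that of HB_A, 1 in place of 2 was called without a filter, with DESeq2, with the sheet covariate and with that block, and 1 to 3 when a library was left out.

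The median log2 fold change of the 7 members in the FVB/N libraries was 2.467 for forebrain by the labels and 0.3951 by the names of the study's expression table, and that for hindbrain reversed from -1.568 to 1.537.

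Replicate numbers of the titles did not pair the libraries. Same-numbered EAE libraries had a mean correlation of -0.0022 in their deviations from group means (-0.169 to 0.264), against 0.000527 for other pairs, and the FVB/N libraries -0.00486 (-0.0482 to 0.0269). With the replicate number as a block, Tmem212 had an edgeR adjusted p of 0.0802 at E4_SC_A and of 0.0515 for the E4 response. The other label number, shared between populations of a stage by 49 pairs of libraries in 24 blocks, gave a mean correlation of 0.0327 (-0.0591 to 0.19, above 0.1 in 8 pairs), against -0.00486 for 314 pairs that share none. Blocks of that number were added after the data were seen and bear on comparisons between populations alone, since blocks were formed within a stage. Ccdc153 had 0 counts in 50 of the 66 EAE libraries and Tmem212 in 53, and the rest had at most 8 and 13, which limits what can be said of both.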
